A study of Gallus gallus with 16 samples.

Results

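The nuclear genes for the subunits of the mitochondrial respiratory chain and of ATP synthase were examined in chicken liver. The genes were chosen by symbol: names beginning with NDUFA, NDUFB, NDUFC, NDUFS or NDUFV (complex I), SDHA to SDHD (complex II), UQCR (complex III), COX4 to COX8 (complex IV) and ATP5 (complex V, the ATP synthase), without the NDUFAF assembly factors. This gave 54 genes of 11528 named on the array: 26 for complex I, 3 for complex II, 6 for complex III, 8 for complex IV and 11 for complex V. Each gene was read from 1 array feature, the one with the highest mean. ATP5B and NDUFV2 each had 2 features, and 2 further features that carried a second gene's symbol beside one of these names were left out. The livers came from 16 male broilers at day 21, 4 birds on each of the diets labelled E, F, H and A. The series concerns saponins and a blend of essential oils from oregano, thyme, rosemary and star anise. No label ties a letter to a supplement or calls diet A unsupplemented, so A serves here as the group the others are set against and no more. Within each diet the birds are numbered 1 to 4 by their order of deposit. The labels call the 4 samples of a diet separate chickens and give no pen or hatch.

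Complexes I to IV pass electrons along the inner mitochondrial membrane, from NADH and succinate to oxygen. Complexes I, III and IV pump protons as they do so, and complex V uses the proton gradient to make ATP. Most subunits are encoded in the nucleus and imported, while a small set of subunits of complexes I, III, IV and V is encoded by mitochondrial DNA. Liver is rich in mitochondria, and its gluconeogenesis, fatty acid oxidation and synthesis of nitrogen waste products depend on this chain.

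Values were the deposited log2 signals, 1 array per bird. Array medians lay between 6.11 and 6.21, and 1 feature's level is never set against another's below. Every one of the 54 genes had a mean above the 20th percentile of all values, 4.31. Of 13 hepatocyte marker genes 12 were measured, and their mean log2 signal was 11.98 to 12.23 in diet E, 12.06 to 12.17 in diet F and 11.998 to 12.21 in diet H, against 12.08 to 12.27 in diet A. Birds H3 and H4 stood apart from the rest: their arrays correlated with the others at 0.948 and 0.946 on average, against 0.966 to 0.976 for the other 14. Most differences that rest on diet H are therefore also given without these birds. Bulk RNA cannot tell a change in the share of a cell type from a change in RNA per cell.

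None of the 54 genes differed between any of the diets at an adjusted p under 0.05 (limma, Benjamini-Hochberg over 20804 features). The share of all features that passed was 0% in each of the 6 comparisons between diets and in the test over all 4 diets. The smallest adjusted p among the 54 was 0.521 for H against A, 0.942 for H against E, 0.971 for H against F, 0.993 for F against A and 0.984 over the 4 diets; for E against A and E against F it rounded to 1.0. At an unadjusted p under 0.05, diet H was higher than diet A in 9 of the 54 genes (4.44% of all features) and lower in 0 (3.77% of all features). Diet H was higher than diet E in 2 (1.67%) and lower in 0 (1.05%), and higher than diet F in 3 (1.49%) and lower in 0 (1.1%). Without H3 and H4, 0 of the 54 genes passed this unadjusted threshold in any of these 3 comparisons; of all features 1.05% were higher and 1.2% lower than in A, 1.68% and 2.48% than in E, and 1.8% and 2.49% than in F. The counts were 0 of 54 for E against A (2.03% of all features in either direction), 0 for F against A (1.68%), 0 for E against F (1.35%) and 0 over the 4 diets (2.13%). In no gene did the 4 birds of E, F or H lie wholly above or below the 4 birds of A, against 2.7%, 1.84% and 2.06% of all 11528 genes for E, F and H. A difference between diets carried an unadjusted 95% interval of ± 0.41 at the median of the 54 genes. The interval was ± 0.26 at the narrowest (SDHA) and ± 0.76 at the widest (NDUFS8). With 4 birds a diet, smaller differences could not be told from 0, and larger ones could still fail the adjusted threshold over 20804 features. NDUFB6, at 0.64 for H minus A, did not pass it.

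In most of the genes the same birds were high or low. Each value was taken as its difference from the gene's own mean over the 16 birds, and the median over the 54 genes was 0.01, -0.21, 0.11 and 0.14 in diet E, -0.15, -0.22, 0.09 and 0.17 in diet F and 0.02, -0.23, 0.41 and 0.53 in diet H, against -0.13, -0.25, -0.04 and -0.08 in diet A. Birds H4 and H3 were highest, and A2, H2, F2 and E2 lowest. In H3 45 genes and in H4 47 genes lay above their own means, in E4 47 and in F4 43, but in A2 only 2, in F2 7, in E2 8 and in H2 11. H3 and H4 were the 2 highest of the 16 birds in 38 of the 54 genes (70.4%), against 15.3% of all genes, and the 2 lowest in 2 genes, NDUFV2 and COX7A2L. H4 was the highest bird for 34 genes and H3 for 10. Diet H thus held the 2 highest birds and 1 of the lowest.

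**Figure D1:**
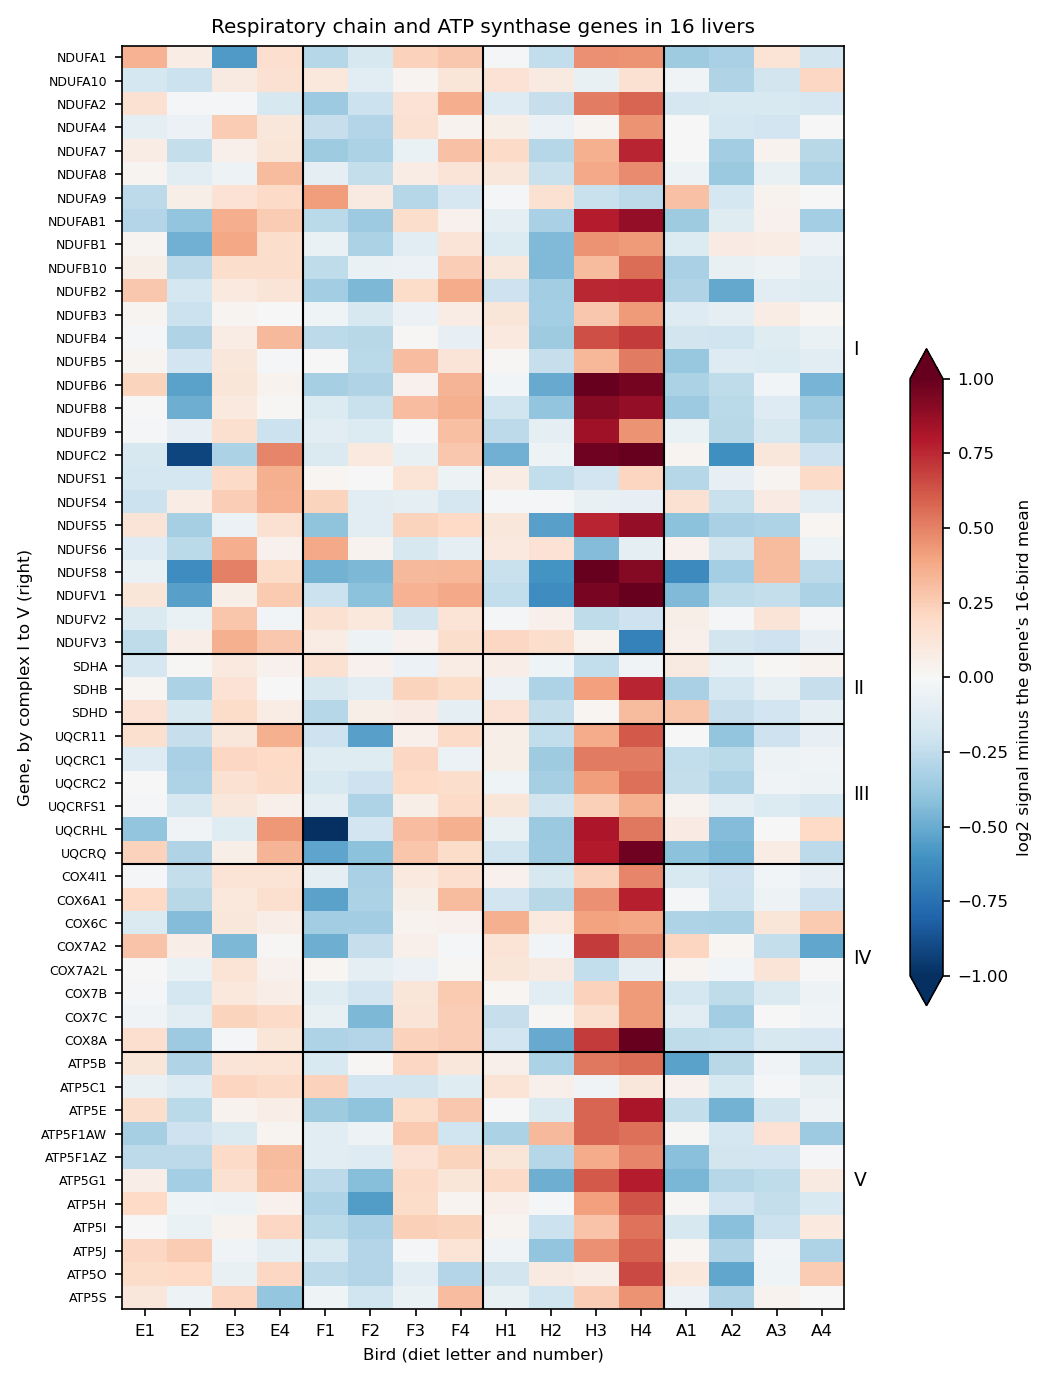
Log2 signal of each of the 54 genes in each of the 16 birds, as the difference from the gene's mean over all birds (colour, capped at -1 and 1), with birds in columns by diet and genes in rows by complex. The columns H3 and H4 are red in most rows, the columns E2, F2, H2 and A2 are mostly blue, and NDUFV2, NDUFS6 and COX7A2L run the other way in H3.

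Within a bird, complexes I, III, IV and V stood at similar places. The median of the 26 complex I genes was -0.01, -0.21, 0.12 and 0.16 in diet E, -0.14, -0.19, 0.04 and 0.15 in diet F and -0.01, -0.25, 0.41 and 0.50 in diet H, against -0.15, -0.21, -0.04 and -0.11 in diet A. For the 6 complex III genes it was -0.01, -0.27, 0.11 and 0.27 in diet E, -0.18, -0.26, 0.20 and 0.19 in diet F and 0.01, -0.34, 0.47 and 0.54 in diet H, against -0.12, -0.35, -0.04 and -0.07 in diet A. In both complexes the birds E2, F2, H2 and A2 were the lowest of their diets. Complex IV, with 8 genes, gave 0.00, -0.21, 0.11 and 0.10 in diet E, -0.22, -0.30, 0.08 and 0.21 in diet F and 0.03, -0.07, 0.32 and 0.45 in diet H, against -0.13, -0.23, -0.04 and -0.06 in diet A. Complex V, with 11 genes, gave 0.11, -0.13, 0.04 and 0.14 in diet E, -0.16, -0.29, 0.18 and 0.12 in diet F and 0.03, -0.20, 0.41 and 0.56 in diet H, against -0.06, -0.28, -0.04 and -0.05 in diet A. In all 4 complexes H3 and H4 were the 2 highest birds. Complexes I, III, IV and V had medians of the same sign in 14 of the 16 birds, and within a bird they spanned 0.01 to 0.27, with a median span of 0.11. Complex II, with 3 genes, gave 0.02, -0.16, 0.15 and 0.04 in diet E, -0.16, 0.04, 0.08 and 0.08 in diet F and 0.07, -0.24, 0.02 and 0.31 in diet H, against 0.09, -0.18, -0.08 and -0.10 in diet A. There H3 lay at 0.02, the lowest of the complexes in that bird, where complex III lay at 0.47. In F2 and A1 complex II lay above 0, at 0.04 and 0.09, while complexes I, III, IV and V all lay below 0. Within diets the SD of the bird medians was 0.35 in H, 0.19 in F, 0.16 in E and 0.09 in A for the 54 genes together.

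**Figure D2:**
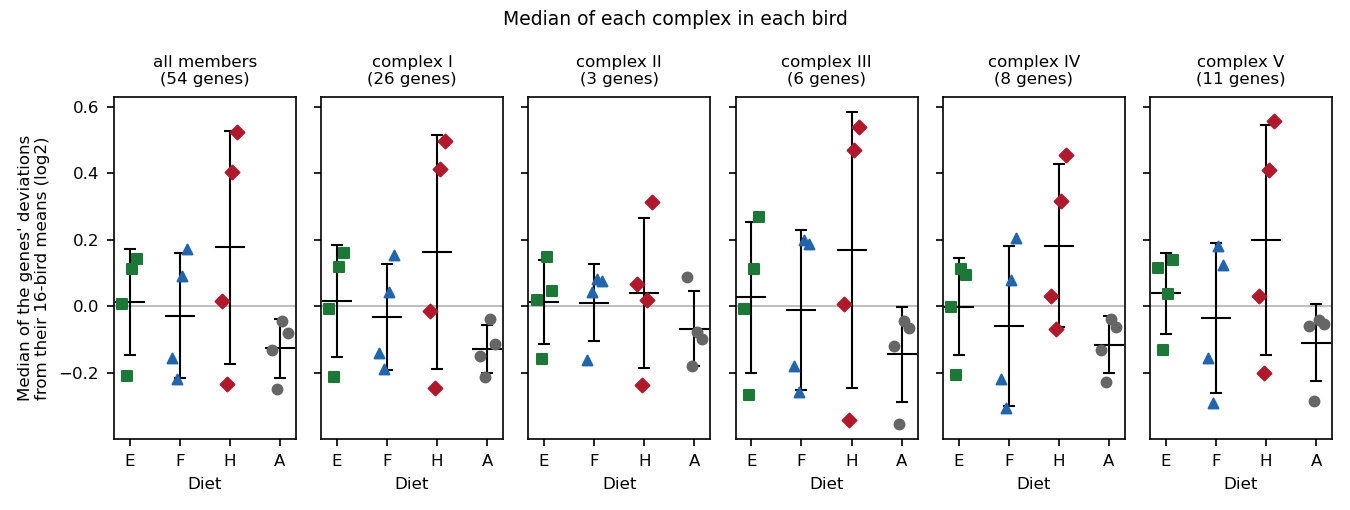
Median over the genes of each complex in each bird (points, log2 difference from each gene's 16-bird mean), with the mean and SD of the 4 birds of each diet (bar and whiskers). Diet H has the highest mean and the widest spread in every panel.

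Set against diet A, the 54 genes leaned upward in every other diet. The median difference was 0.17 for E, with 45 of 54 genes higher, 0.09 for F, with 42 higher, and 0.34 for H, with 47 higher; over all genes the medians were 0.01, 0.01 and 0.01. Short genes leaned upward as a class. All 2120 genes with a genomic span under 5000 bp gave medians of 0.09 for E, 0.09 for F and 0.19 for H. The 37 such genes among the 54 gave 0.18, 0.11 and 0.35. These 3 comparisons share the 4 birds of diet A. The mean was highest in H for 45 of the 54 genes and lowest in A for 36, against 32.9% and 34.9% of all genes. Without H3 and H4 the mean was highest in E for 30 genes and in H for 9, and lowest in A for 22 and in H for 19. Of all 11528 genes it was then highest in E for 2751 and in H for 3510 (30.4%). It was lowest in A for 2450 (21.3%) and in H for 3785. By complex, H exceeded A by 0.35 in complex I, 0.12 in II, 0.32 in III, 0.31 in IV and 0.38 in V. Without H3 and H4 the same medians were 0.01, 0.01, -0.01, 0.06 and 0.10, and 0.02 over the 54 genes. The medians of E minus A were 0.16, 0.12, 0.15, 0.14 and 0.20 for complexes I to V, and those of F minus A 0.13, 0.04, 0.09, 0.04 and 0.08. The median was 0.16 for H minus E (45 of 54 genes higher), 0.20 for H minus F (46 higher) and 0.04 for E minus F (37 higher). Without H3 and H4 the direction turned, to -0.13 for H minus E and -0.07 for H minus F. Single birds moved these values too: H minus A was 0.21 without H4 and 0.47 without H2, H minus E was 0.05 without H4 and 0.30 without H2, and F minus A was 0.04 without F4 and 0.17 without F2.

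**Figure D3:**
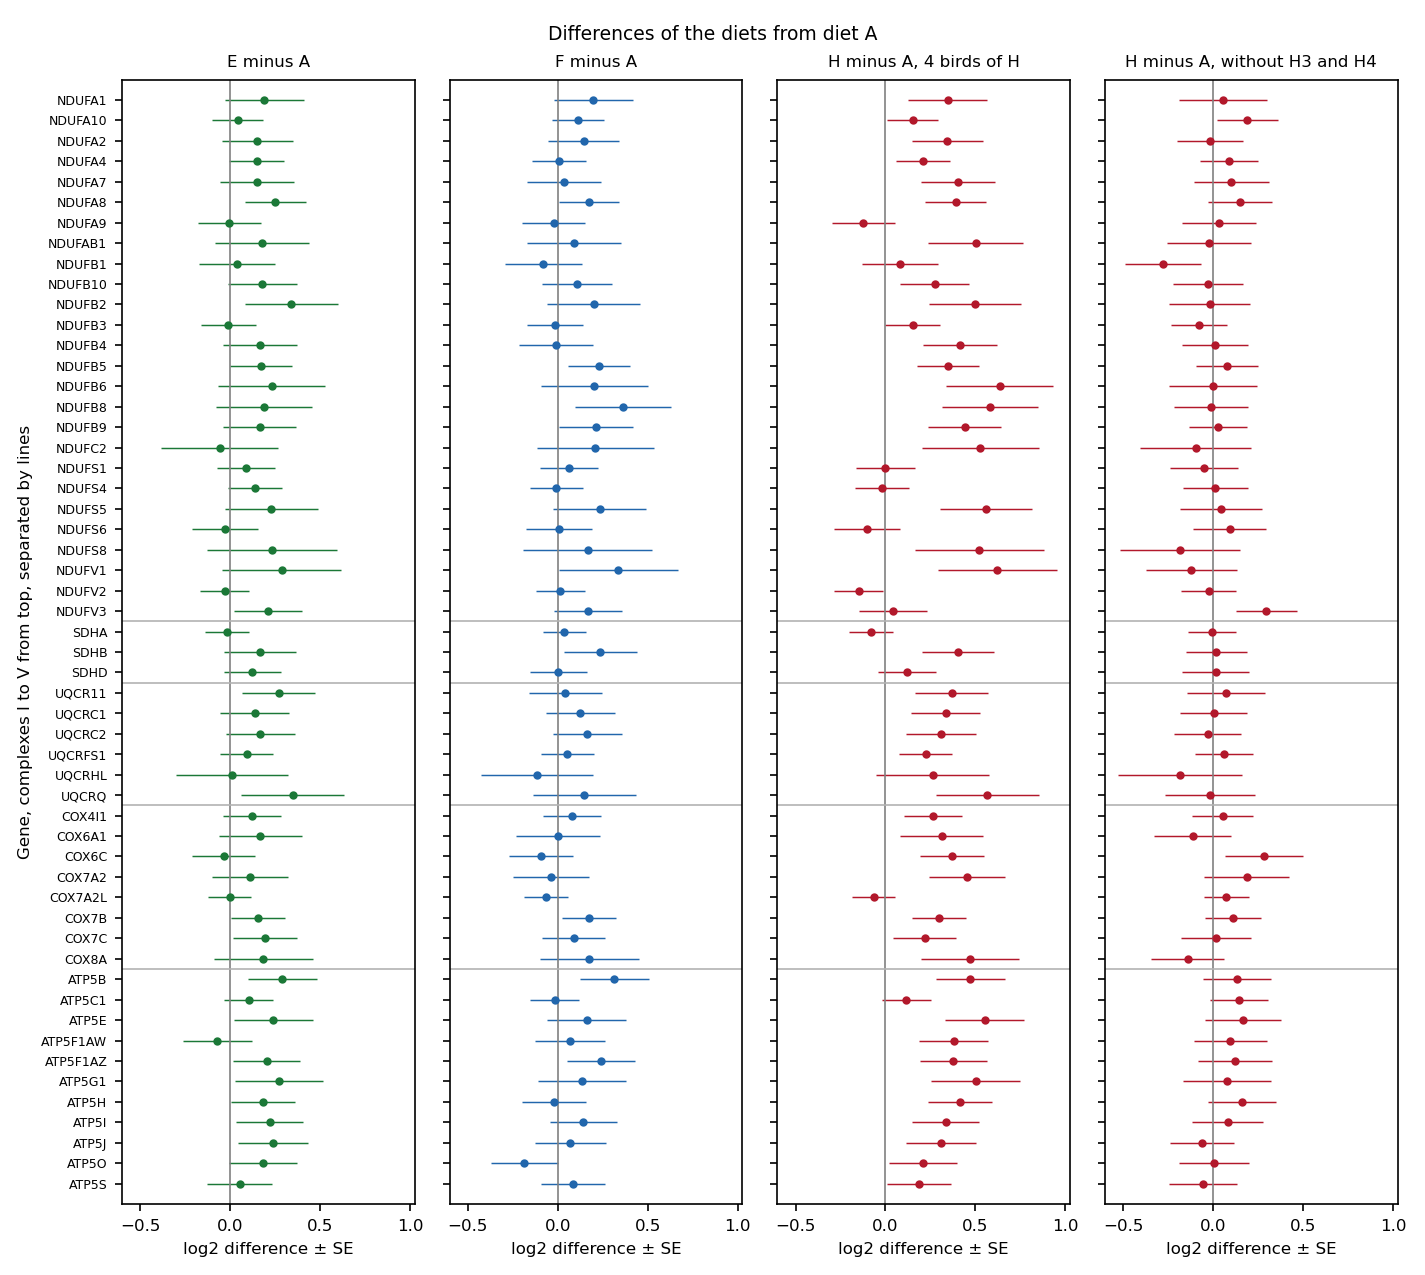
Log2 difference of each gene from diet A with its standard error (limma), for diets E, F and H and for H without birds H3 and H4; genes run down the page by complex. Most points lie right of 0 in the first 3 panels, furthest for H, and they gather around 0 once H3 and H4 are left out.

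In complex I the genes with the highest SD over the 16 birds were NDUFS8, NDUFV1, NDUFC2, NDUFB6 and NDUFB8. NDUFV1 carries the FMN cofactor that accepts electrons from NADH, and its log2 signal was 8.43, 7.77, 8.37 and 8.57 in diet E, 8.10, 7.90, 8.66 and 8.69 in diet F and 8.07, 7.69, 9.26 and 9.47 in diet H, against 7.87, 8.06, 8.07 and 7.997 in diet A. H3 and H4 were the highest of the 16 birds and H2 the lowest, so diet H held both ends of the range. The difference of H from A was 0.62 ± 0.33, and -0.12 ± 0.25 without H3 and H4. NDUFS8, an iron-sulphur subunit with the highest SD of the complex, read 7.47, 6.92, 8.04 and 7.72 in diet E, 7.06, 7.09, 7.86 and 7.87 in diet F and 7.31, 6.94, 8.62 and 8.45 in diet H, against 6.90, 7.20, 7.85 and 7.27 in diet A. Again H3 and H4 were highest, and E2, H2 and A1 were lowest. H minus A was 0.52 ± 0.36, and -0.18 ± 0.33 without H3 and H4. NDUFV2, the partner of NDUFV1 with its own iron-sulphur cluster, had the lowest SD of the complex and read 8.42, 8.497, 8.84 and 8.53 in diet E, 8.72, 8.67, 8.38 and 8.70 in diet F and 8.55, 8.61, 8.31 and 8.36 in diet H, against 8.62, 8.55, 8.69 and 8.55 in diet A. Its H3 and H4 values were the 2 lowest of all, opposite to NDUFV1. The second NDUFV2 feature was below the 20th percentile in all 16 birds and is not read here. NDUFS1, the largest iron-sulphur subunit of the electron input arm, read 10.31, 10.30, 10.67 and 10.84 in diet E, 10.50, 10.47, 10.62 and 10.43 in diet F and 10.55, 10.23, 10.28 and 10.69 in diet H, against 10.19, 10.39, 10.50 and 10.67 in diet A, and the diets overlapped throughout.

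Among the accessory subunits, NDUFA8 read 7.87, 7.72, 7.79 and 8.15 in diet E, 7.74, 7.60, 7.91 and 7.96 in diet F and 7.95, 7.62, 8.21 and 8.31 in diet H, against 7.78, 7.46, 7.76 and 7.52 in diet A. The birds of H reached higher than those of the other diets, but H2 lay within the range of A. H exceeded A by 0.39 ± 0.17, with a 95% interval of 0.03 to 0.74, and by 0.15 ± 0.18 without H3 and H4. NDUFB8 lies in the membrane arm and read 8.74, 8.26, 8.84 and 8.76 in diet E, 8.61, 8.53, 9.06 and 9.10 in diet F and 8.55, 8.35, 9.66 and 9.63 in diet H, against 8.39, 8.47, 8.61 and 8.38 in diet A. Here H3 and H4 stood well above every other bird, while H1 lay within the range of A and H2 below it. The difference of H from A was 0.58 ± 0.27 with all birds and -0.01 ± 0.20 without these birds. NDUFS5 gave 8.39, 7.93, 8.20 and 8.41 in diet E, 7.86, 8.15, 8.48 and 8.45 in diet F and 8.37, 7.72, 9.02 and 9.14 in diet H, against 7.84, 7.93, 7.95 and 8.28 in diet A. H3 and H4 were again highest, H1 lay above the birds of A, and H2 was the lowest of the 16 birds. H minus A was 0.56 ± 0.26, and 0.04 ± 0.23 without H3 and H4. NDUFB2 differed from A by 0.34 ± 0.26 in E and 0.50 ± 0.26 in H (-0.02 ± 0.23 without H3 and H4), and NDUFB5 by 0.23 ± 0.17 in F. NDUFC2 read 8.30, 7.55, 8.14 and 8.95 in diet E, 8.32, 8.56, 8.39 and 8.74 in diet F and 7.98, 8.41, 9.43 and 9.46 in diet H, against 8.49, 7.85, 8.58 and 8.26 in diet A. E2 was the lowest of the 16 birds and H3 and H4 the highest, and H minus E was 0.59 ± 0.33 with all birds and -0.04 ± 0.31 without H3 and H4. The remaining complex I genes ran from -0.12 to 0.64 for H minus A, and 5 of the 26 were below 0: NDUFA9, NDUFS1, NDUFS4, NDUFS6 and NDUFV2.

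Complex II, which oxidises succinate and is also an enzyme of the citrate cycle, was represented by SDHA, SDHB and SDHD. SDHA, the flavoprotein subunit, read 9.86, 10.05, 10.13 and 10.08 in diet E, 10.19, 10.08, 9.97 and 10.11 in diet F and 10.10, 9.99, 9.79 and 9.999 in diet H, against 10.12, 9.97, 10.04 and 10.07 in diet A. It had the lowest SD of the complex, and H3 was its lowest bird. H minus A was -0.08 ± 0.12, with a 95% interval of -0.34 to 0.18, and -0.01 ± 0.13 without H3 and H4. SDHB, the iron-sulphur subunit, read 9.51, 9.18, 9.64 and 9.502 in diet E, 9.33, 9.39, 9.72 and 9.68 in diet F and 9.43, 9.19, 9.91 and 10.26 in diet H, against 9.17, 9.32, 9.42 and 9.26 in diet A. H4 and H3 were highest, and A1, E2 and H2 lowest. H exceeded A by 0.40 ± 0.20, or 0.02 ± 0.17 without H3 and H4, and F exceeded A by 0.24 ± 0.20. The catalytic pair of this small complex thus had opposite places in H3, where SDHA lay 0.24 below its mean and SDHB 0.41 above. SDHD, a membrane anchor, differed from A by 0.12 ± 0.16 in H (0.01 ± 0.19 without H3 and H4).

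Complex III passes electrons from ubiquinol to cytochrome c. UQCRC1, a core protein, read 9.37, 9.18, 9.71 and 9.70 in diet E, 9.38, 9.39, 9.71 and 9.44 in diet F and 9.57, 9.15, 10.02 and 10.02 in diet H, against 9.26, 9.24, 9.46 and 9.47 in diet A. H3 and H4 were the highest birds and H2 the lowest. H minus A was 0.34 ± 0.19, and 0.00 ± 0.19 without these birds. UQCRFS1, the Rieske iron-sulphur protein, had the lowest SD of the complex and read 9.45, 9.30, 9.57 and 9.51 in diet E, 9.36, 9.15, 9.52 and 9.65 in diet F and 9.58, 9.28, 9.70 and 9.81 in diet H, against 9.497, 9.36, 9.33 and 9.29 in diet A. All 4 diets overlapped, and H minus A was 0.22 ± 0.15 with all birds and 0.06 ± 0.16 without H3 and H4. UQCRHL, named for its likeness to the hinge protein UQCRH, had the highest SD and read 9.38, 9.74, 9.65 and 10.21 in diet E, 8.69, 9.58, 10.08 and 10.13 in diet F and 9.70, 9.399, 10.58 and 10.30 in diet H, against 9.86, 9.34, 9.77 and 9.97 in diet A. F1 lay 1.09 below the gene's mean, further than any other bird of any diet for that gene. UQCRQ and UQCR11, small accessory subunits, differed from A by 0.35 ± 0.29 and 0.27 ± 0.20 in E and by 0.57 ± 0.29 and 0.37 ± 0.20 in H. Without H3 and H4 the H values were -0.02 ± 0.25 and 0.07 ± 0.22.

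Complex IV, cytochrome c oxidase, passes the electrons to oxygen. COX6C, a nuclear-encoded accessory subunit, was high in all 4 birds of H. It read 9.34, 9.05, 9.59 and 9.54 in diet E, 9.13, 9.13, 9.51 and 9.52 in diet F and 9.83, 9.57, 9.88 and 9.87 in diet H, against 9.17, 9.16, 9.60 and 9.74 in diet A. All 4 birds of H lay above the mean of each other diet's birds, while E3, A3 and A4 reached into the range of H. H exceeded F by 0.46 ± 0.18 with a 95% interval of 0.09 to 0.84, and E by 0.41 ± 0.18; without H3 and H4 the differences were 0.38 ± 0.22 and 0.32 ± 0.22. The adjusted p was 0.971 against F and 0.942 against E (limma). COX7A2, the liver-type form of a subunit with a muscle counterpart in mammals, read 9.56, 9.35, 8.82 and 9.29 in diet E, 8.79, 9.05, 9.33 and 9.26 in diet F and 9.41, 9.25, 9.98 and 9.76 in diet H, against 9.49, 9.29, 9.03 and 8.76 in diet A. H3 and H4 were highest, A4, F1 and E3 lowest, and H minus F was 0.49 ± 0.21 with all birds and 0.22 ± 0.24 without H3 and H4. COX8A, the isoform found in most mammalian tissues, had the highest SD and read 7.72, 7.19, 7.53 and 7.68 in diet E, 7.24, 7.26, 7.79 and 7.80 in diet F and 7.36, 7.05, 8.26 and 8.61 in diet H, against 7.30, 7.31, 7.39 and 7.39 in diet A. H4 and H3 lay above all others and H2 below all others, while the 4 birds of A lay close together. COX7A2L, which in mammals helps assemble supercomplexes of III and IV, had the lowest SD and read 8.34, 8.26, 8.47 and 8.37 in diet E, 8.35, 8.24, 8.27 and 8.34 in diet F and 8.46, 8.42, 8.09 and 8.23 in diet H, against 8.36, 8.31, 8.46 and 8.33 in diet A. H3 and H4 were its 2 lowest birds. COX4I1, a nuclear-encoded accessory subunit, exceeded A by 0.12 ± 0.16 in E, 0.08 ± 0.16 in F and 0.27 ± 0.16 in H (0.05 ± 0.17 without H3 and H4). COX7B exceeded A by 0.17 ± 0.15 in F.

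Complex V held ATP5E and ATP5B, the genes with the smallest p for H against A among the 54. ATP5B, the catalytic beta subunit, read 12.002, 11.58, 12.01 and 12.02 in diet E, 11.72, 11.89, 12.09 and 11.99 in diet F and 11.93, 11.56, 12.41 and 12.44 in diet H, against 11.35, 11.60, 11.84 and 11.66 in diet A. A1 was lowest of all and H3 and H4 highest, with H2 below every bird of A but A1. The differences from A were 0.29 ± 0.19 in E, 0.31 ± 0.19 in F and 0.47 ± 0.19 in H, and 0.13 ± 0.19 in H without H3 and H4. The second ATP5B feature gave differences from A of the same direction, 0.38 ± 0.26 in E, 0.32 ± 0.26 in F and 0.66 ± 0.26 in H. In diet H this feature read 9.52, 9.21, 10.35 and 10.45, against a mean of 9.23 in diet A, so H3 and H4 were highest there too. ATP5E, the epsilon subunit of the central stalk, read 9.23, 8.79, 9.10 and 9.13 in diet E, 8.70, 8.65, 9.25 and 9.33 in diet F and 9.06, 8.92, 9.64 and 9.88 in diet H, against 8.82, 8.58, 8.87 and 9.01 in diet A. H4 and H3 were highest and A2 lowest. H exceeded A by 0.55 ± 0.22, with a 95% interval of 0.09 to 1.02, and by 0.17 ± 0.21 without H3 and H4. ATP5H, subunit d of the peripheral stalk, read 10.18, 9.93, 9.92 and 10.02 in diet E, 9.66, 9.41, 10.16 and 10.004 in diet F and 10.02, 9.96, 10.39 and 10.60 in diet H, against 9.99, 9.78, 9.73 and 9.82 in diet A. H3 and H4 were highest and F2 and F1 lowest, so that H exceeded F by 0.44 ± 0.18 and A by 0.41 ± 0.18. Without H3 and H4 these differences were 0.18 ± 0.19 and 0.16 ± 0.19.

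ATP5O, the subunit that joins the stalk to the catalytic head, read 9.21, 9.22, 8.95 and 9.23 in diet E, 8.76, 8.73, 8.92 and 8.73 in diet F and 8.84, 9.11, 9.09 and 9.68 in diet H, against 9.13, 8.51, 8.98 and 9.27 in diet A. Every bird of E lay above every bird of F, but only narrowly, with E3 at 8.95 and F3 at 8.92. The share of all genes with such a separation was not counted for this pair of diets. E exceeded F by 0.37 ± 0.19, and this gene was chosen by its p for that comparison. ATP5G1, one of the genes for the membrane ring subunit c, had the highest SD of the complex and read 9.28, 8.87, 9.37 and 9.52 in diet E, 8.96, 8.79, 9.402 and 9.34 in diet F and 9.402, 8.73, 9.82 and 10.001 in diet H, against 8.76, 8.93, 8.96 and 9.30 in diet A. H4 and H3 were highest and H2 lowest, so here too 1 diet held both ends. ATP5C1, the gamma subunit that turns inside the head, had the lowest SD and read 9.95, 9.89, 10.24 and 10.22 in diet E, 10.25, 9.84, 9.84 and 9.90 in diet F and 10.16, 10.07, 9.99 and 10.13 in diet H, against 10.07, 9.87, 10.01 and 9.95 in diet A. F1, E3 and E4 were its highest birds, and H minus A was 0.11 ± 0.14 (0.14 ± 0.16 without H3 and H4). ATP5J, another stalk subunit, exceeded A by 0.24 ± 0.20 in E.

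The alpha subunit has a copy on each sex chromosome in the RefSeq table (GRCg7b). ATP5F1AZ, on the Z chromosome of which males carry a pair, read 10.17, 10.18, 10.63 and 10.75 in diet E, 10.33, 10.31, 10.58 and 10.66 in diet F and 10.56, 10.15, 10.81 and 10.92 in diet H, against 10.02, 10.25, 10.25 and 10.42 in diet A. ATP5F1AW lies on the W chromosome, which is passed through females, and it read 5.25, 5.38, 5.44 and 5.61 in diet E, 5.48, 5.53, 5.85 and 5.38 in diet F and 5.27, 5.91, 6.17 and 6.14 in diet H, against 5.60, 5.41, 5.73 and 5.23 in diet A in these males. H3, H4 and H2 were its highest birds, and H exceeded E by 0.45 ± 0.19 with all birds and by 0.17 ± 0.20 without H3 and H4. Males with a pair of Z chromosomes carry no W, so the values of the W feature cannot be read as expression of the W copy. The same holds for its difference of H from E. The 2 copies are near-identical genes, and whether the signal of the W feature came from Z transcripts or from background was not tested. ATP5F1AW was chosen by symbol and stays in the counts and medians of complex V and of all the genes. What the Z feature detects was not tested either.

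Of the subunits encoded by mitochondrial DNA, COX3, ND4L and ND6 had named features, 16 in all. The brightest feature of COX3 read 13.72, 13.70, 13.77 and 13.72 in diet E, 13.73, 13.66, 13.73 and 13.76 in diet F and 13.71, 13.67, 13.85 and 13.81 in diet H, against 13.75, 13.70, 13.72 and 13.69 in diet A. That of ND4L, a membrane subunit of complex I, read 13.73, 13.70, 13.78 and 13.79 in diet E, 13.70, 13.69, 13.76 and 13.76 in diet F and 13.74, 13.70, 13.74 and 13.79 in diet H, against 13.66, 13.76, 13.72 and 13.75 in diet A. Both varied little and lay near the top of the scale. ND6, another complex I subunit, read 11.72, 11.68, 12.15 and 12.08 in diet E, 11.53, 11.83, 12.19 and 11.82 in diet F and 11.48, 11.46, 12.02 and 12.22 in diet H, against 11.14, 11.503, 11.70 and 11.73 in diet A on its brighter feature, with A1 lowest and H4 highest and the diets overlapping. H3 and H4 were the 2 highest birds in 11 of the 16 features, the brightest of COX3 among them. Of the 11 features with a mean under 11, they were the 2 highest in 9. A dim ND4L feature, for example, read 5.86, 5.23, 6.13 and 6.41 in diet E, 5.53, 5.03, 6.24 and 5.50 in diet F and 5.64, 5.51, 7.99 and 7.48 in diet H, against 5.55, 5.87, 5.42 and 6.40 in diet A, with H3 and H4 above all other birds. The 9 include features under the 20th percentile of all values, 4.31, which are too dim to be read. The dimmer ND6 feature averaged 2.77 in E, 2.61 in F and 3.12 in H, against 2.61 in A. Another ND4L feature averaged 3.68 in E, 3.07 in F and 4.18 in H, against 3.12 in A. None of the 16 features passed the adjusted threshold in any comparison between diets.

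The 54 genes are short. Their median genomic span in the RefSeq table (GRCg7b, 53 genes matched) was 3353 bp, against 16339.5 bp over all genes. Across the 53 genes, Spearman's rho between span and the difference of H from A was -0.557, and 0.162 without H3 and H4. Over 11030 genes it was -0.344. For E minus A the 53 genes gave -0.532 and for F minus A -0.215, against -0.260 and -0.243 over the 11030 genes. These are descriptions across genes that share arrays, and genes are not replicates. Within single birds the correlation of span with the deviation from the mean ran from -0.613 in H4, -0.556 in F4, -0.548 in H3 and -0.544 in E1 to 0.521 in H2, 0.516 in F2 and 0.709 in F1. Over the 11030 genes it had the same sign in these birds. There it was -0.363 in H4, -0.318 in F4, -0.353 in H3, -0.278 in E1, 0.331 in H2, 0.331 in F2 and 0.276 in F1. In 37 genes under 5000 bp the median of H minus A was 0.35, with 36 higher; all 2120 genes of that class gave 0.19. In 11 genes between 5000 bp and the median of all genes it was 0.31, against 0.05 over 3395 genes. In the 5 longest, ATP5F1AW, NDUFA10, NDUFA9, NDUFS4 and NDUFS6, it was -0.02, against -0.11 over 5515 genes. Under 5000 bp, the median of E minus A was 0.18 in the 37 genes and 0.09 in all 2120. That of F minus A was 0.11 and 0.09. After a smooth trend on span was removed from each array, the median of the 54 genes was 0.13 for H minus A (45 higher), 0.08 for E minus A and 0.04 for F minus A. What links span to these values was not tested.

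**Figure D4:**
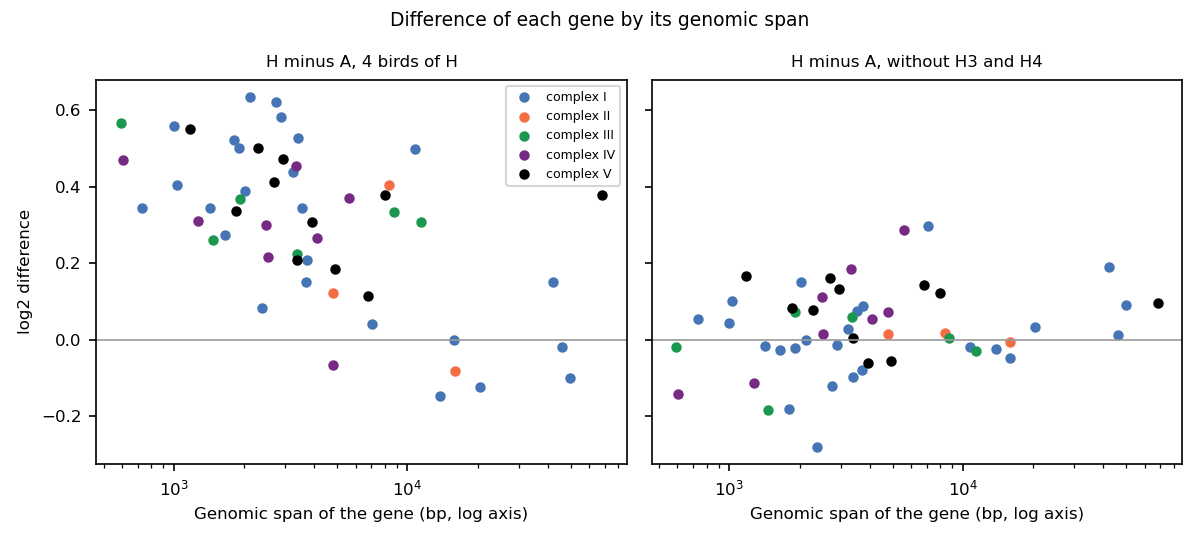
Log2 difference of diet H from diet A for 53 genes (points, coloured by complex) against the genomic span of the gene in bp on a log axis, with all 4 birds of H (left) and without H3 and H4 (right). With all birds the short genes lie higher than the long ones (rho -0.557), and without H3 and H4 the points lie around 0 at every span (rho 0.162).

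The samples carry numbers in their titles, 4 to 22 for birds 1 and 2 of each diet and 26 to 47 for birds 3 and 4, and what the numbers stand for is not stated. In every diet both birds with numbers over 25 had a higher median over the 54 genes than both birds with lower numbers. Birds 3 and 4 minus birds 1 and 2 gave a median difference of 0.23 in E (47 of 54 genes higher), 0.34 in F (48) and 0.57 in H (45), against 0.10 in A (43). The corresponding medians over all genes were 0.01, 0.06, 0.06 and 0.02. Both upper birds lay above both lower birds in 29 of 54 genes in E (16.8% of all genes), 37 in F (34.9%), 41 in H (39.2%) and 19 in A (20.5%).

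In a limma fit with the diets as terms, added after these values were seen, the 8 birds with numbers over 25 exceeded the 8 others by a median of 0.30, with 48 of 54 genes higher. Over all 11528 genes the median was 0.05, with 6367 higher. By complex the medians were 0.28, 0.07, 0.39, 0.31 and 0.22 for I to V. At an unadjusted p under 0.05, 35 of the 54 genes were higher (16.7% of all features) and 0 lower (14.9%); at an adjusted p under 0.05 it was 0 of 54 (0% of all features), and the smallest adjusted p among the 54 was 0.0615. Without diet E, 26 of the 54 genes and 5900 of all features passed the adjusted threshold. The smallest p belonged to NDUFS8 (0.85 ± 0.14), UQCRQ (0.61 ± 0.13) and NDUFAB1 (0.55 ± 0.12), chosen here after their values were seen. Without H3 and H4 the median was 0.22, with 51 of 54 genes higher, against 0.03 over all 11528 genes, with 6339 higher. Diet H then held no number over 25 and added nothing to that estimate, so leaving out all of diet H gave the same values. With the span trend removed the median was 0.12. Among the numbers over 25 the bird medians were lowest in A, which holds the lowest of these numbers, and highest in H, which holds the highest, so number and diet cannot be told apart there. With the title numbers as a term in the fit, 0 of the 54 genes passed the adjusted threshold for any difference between diets, and the smallest adjusted p was 0.32 for H minus A. At an unadjusted p under 0.05, 28 of the 54 genes were then higher in H than in A (7.35% of all features) and 0 lower (7.91%), 3 higher in H than in E (2.65%) and 0 lower (1.74%), and 9 higher in H than in F (2.11%) and 0 lower (1.56%). Within the lower numbers the median difference from A was 0.08 for E, 0.02 for F and 0.09 for H, and within the upper numbers 0.21, 0.24 and 0.55.

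**Figure D5:**
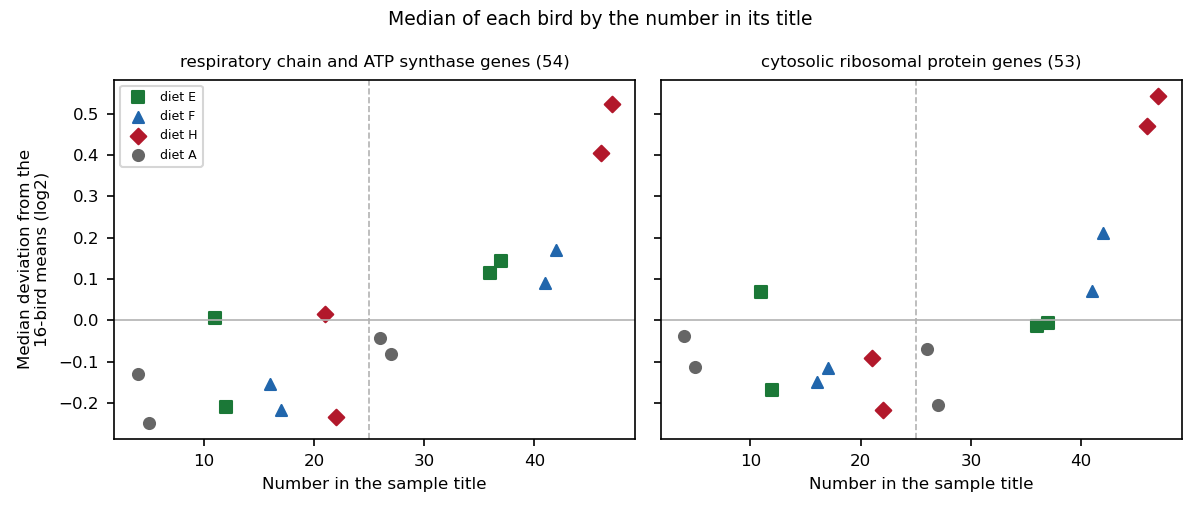
Median deviation of each bird (log2) against the number in its sample title, for the 54 respiratory chain and ATP synthase genes (left) and 53 cytosolic ribosomal protein genes (right); colour and shape give the diet and the dashed line stands at 25. For the 54 genes the birds right of the line lie above their diet's birds left of it, and H3 and H4 lie highest in both panels.

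Other mitochondrial gene lists did not all follow the subunits. None of their genes passed the adjusted threshold in any of the 6 comparisons between diets. The 21 assembly factors of complexes II to V had median deviations of 0.25 and 0.23 in H3 and H4. COX19 and COX17, which take part in cytochrome c oxidase assembly, exceeded A in diet H by 0.65 ± 0.25 and 0.40 ± 0.16. Without H3 and H4 they did so by 0.15 ± 0.20 and 0.16 ± 0.16. ATPAF2 of the same list differed from A by 0.52 ± 0.25 in H, and by -0.03 ± 0.18 without H3 and H4. The 10 complex I assembly factors gave -0.05 and 0.10. The 58 mitochondrial ribosomal protein genes, which translate the mitochondrial transcripts, gave 0.14 and 0.30. Below their means in the same birds lay the 18 genes of the citrate cycle and pyruvate dehydrogenase (-0.21 and -0.13), 15 regulators of mitochondrial biogenesis (-0.30 and -0.12) and 14 organisers of cristae and supercomplexes (-0.25 and -0.34). The 13 genes of electron carriers and coenzyme Q synthesis gave -0.08 and -0.13, and 6 carrier, porin and uncoupling genes -0.14 and -0.02. Against diet A, the median of H was -0.04 for the citrate cycle list and 0.08 for the assembly factors of II to V, where the 54 subunits had 0.34. Without H3 and H4 the 54 subunits had 0.02, so this contrast between lists holds only with these birds included. The genomic spans of these mitochondrial lists were not set beside their values. Outside mitochondria, 53 cytosolic ribosomal protein genes, with a median span of 3364 bp, gave 0.47 and 0.54 in H3 and H4, and a median of 0.26 for H minus A.

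Some markers of other cell types were also high in H3 and H4. All 6 measured striated muscle markers, of 10 listed, lay above their means in H3 and H4, by a median of 0.46 and 0.61, and in F4. Their mean log2 signal was 5.70 to 6.01 in E, 5.66 to 6.16 in F and 5.49 to 6.37 in H, against 5.50 to 5.79 in A. Some of these markers lay near the 20th percentile of all values, 4.31. TNNC2 averaged 4.57 in E, 4.70 in F and 4.61 in H, against 4.30 in A, and TNNT3 4.81, 4.66 and 4.85, against 4.55. TNNC1 was bright, at 9.40, 9.85 and 9.92, against 9.34. Of 5 measured stellate and fibroblast markers 4 lay above their means in H3 and H4, by a median of 0.54 and 0.83, and their mean signal was 7.97 to 8.38 in E, 7.52 to 8.43 in F and 7.75 to 8.56 in H, against 7.56 to 7.85 in A. Of 7 measured pancreas and gut markers, 7 in H3 and 6 in H4 lay above their means (0.73 and 0.41), with means of 4.49 to 4.79 in E, 4.50 to 5.78 in F and 4.56 to 5.52 in H, against 4.26 to 4.73 in A; 2 of the 7 averaged below the 20th percentile of all values. T and NK cell markers gave 0.23 and 0.12 and were highest in H2 at 0.51. In H3 and H4, erythroid markers gave 0.19 and 0.43, macrophage markers 0.25 and -0.06, bile duct markers 0.26 and -0.13 and hepatocyte markers -0.12 and 0.01. The part of these cells in the values of the 54 genes was not tested.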

How the data were processed

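Liver RNA of 16 birds was hybridised to 1 array each, after total RNA extraction (Qiazol, RNeasy), the Ambion WT Expression Kit and Affymetrix WT labelling, per the labels' protocols. The authors deposited log2 signals; GCOS 1.1.1 is named in the submitters' processing notes, while normalization and background correction are not described there or in the labels. Features were named through the platform's gene symbols: 12300 of 20804 had 1 symbol, 256 several and 8248 none. A gene was read from its feature with the highest mean.

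The deposited values were used as they stand. limma 3.58.1 in R 4.3.3 fitted all 20804 features with the 4 diets as groups and 12 residual degrees of freedom, and p-values were adjusted by Benjamini-Hochberg over all features; checks on simulated data were run. The p-values measure the spread among these birds, whose number limits the precision. Members and gene lists were chosen with earlier results of these data known. Genes named by value had the 6 smallest p in a difference from diet A or over the 4 diets, or the 3 smallest in another comparison. Main subunits, tissue isoforms and the genes with the highest and lowest SD in each complex were named whatever their values. In the other lists up to 3 were named by smallest p over the diets. NDUFS7 and COX5A of the main subunits, and the isoforms COX4I2, COX6A2, COX7A1, COX8C, NDUFA4L2, ATP5G2 and ATP5G3, were not analysed here. NDUFA4, counted in complex I by its symbol, is now known as a complex IV subunit. Alternatives were array weights, trended and robust variance moderation, other normalization, a filter on dim features, the mean of a gene's features, only the 8 birds compared, a title number term, removal of a trend on genomic span, and birds left out. Chromosomes and spans come from the RefSeq table of GRCg7b.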

Additional observations from a re-analysis of the deposited data

Results flagged for a closer look

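In 10 of 152 groups of 4 birds examined (6.58%), 1 bird's gap to the nearest of the other 3 exceeded Dixon's 95% critical share of the group's range. Chance gives about 1 in 20 such groups. Among the complexes, F1 lay at -0.16 for complex II, with the other birds of F at 0.04 to 0.08, and A2 at -0.28 for complex V, with the other birds of A at -0.06 to -0.04. Among single genes, E2 was low for ATP5B (11.58, the others 12.002 to 12.02) and for NDUFB8 (8.26, the others 8.74 to 8.84). ATP5O had E3 low at 8.95, the others of E at 9.21 to 9.23, and F3 high at 8.92, the others of F at 8.73 to 8.76. ATP5C1 had F1 high at 10.25, the others at 9.84 to 9.90. NDUFV2 had F3 low at 8.38, the others at 8.67 to 8.72. COX6C had H2 low at 9.57, the others of H at 9.83 to 9.88, and NDUFB5 had A1 low at 9.33, the others of A at 9.58 to 9.61.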

How the results depend on the processing

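Of the values recomputed under each alternative, 1476 kept their direction and side of the threshold or stayed within the spread, 20 moved and 2 single genes turned direction. Single genes entered this tally only in the comparison whose p named them. Outside it, genes such as NDUFV1 (0.62 to -0.12) and NDUFS8 (0.52 to -0.18) turned for H minus A without H3 and H4. Others, such as COX6C (0.37 to 0.29), kept their direction. Without H3 and H4 the median over the 54 genes was 0.0166 for H minus A, -0.13 for H minus E and -0.0655 for H minus F. The last 2 thus turned direction, as did their medians in complexes I, III, IV and V. The complex II median of H minus F also turned, from 0.12 to -0.04, and the complex III median of H minus A, from 0.32 to -0.007. Some complex medians changed sign in other settings but were counted as within the spread. With the span trend removed, complex II of H minus A went from 0.12 to -0.03 and complex IV of F minus A from 0.04 to -0.06. The latter was -0.04 without F4. Among the genes named by their p in that comparison, NDUFB8 in H minus A (-0.0126) and NDUFC2 in H minus E (-0.0384) turned. With each bird left out in turn, the median ranged over 0.12 to 0.21 for E minus A, 0.04 to 0.17 for F minus A, 0.21 to 0.47 for H minus A, -0.02 to 0.12 for E minus F, 0.05 to 0.30 for H minus E and 0.08 to 0.34 for H minus F. Array weights called 1 feature for E minus A at an adjusted p under 0.05. For the title numbers, the fit without diet E called 5900 features and 26 of the 54 genes, against 0 and 0 with all diets. Every other alternative of that fit, with diet A, F or H or birds H3 and H4 left out among them, also called 0 and 0. The cause of these shifts was not tested. With the title numbers as a term, the medians were those of the fit without it, and 0 genes passed the adjusted threshold. At an unadjusted p under 0.05, 28 of the 54 genes, against 9, were higher in H than in A, with 9 against 3 for H minus F. The shares of all features rose too, to 7.35% against 4.44% for H minus A and 2.11% against 1.49% for H minus F. The share lower in H than in A was 7.91% against 3.77%. No paired analysis was possible because the bird numbers within a diet only name samples in order of deposit and match no bird of one diet to a bird of another. With 4 birds per diet, the median 95% interval of ± 0.41 limits what could be resolved.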
